A study of Mus musculus with 2 samples.

Results

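The S-phase and mitosis genes described here are 43 of the 32285 gene features measured in nuclei of the fetal mouse lung. They were taken by name, 22 that act in DNA replication and 21 that act in mitosis, and all 43 were found in both libraries. Of the gene features, 32272 are nuclear genes, and every level below is a count of unique molecular identifiers (UMIs) per 1000000 nuclear-gene UMIs (CPM). The RNA and the open chromatin of the same nuclei had been read with a multiome kit, from wild-type mice of the C57BL/6J strain. Mothers aged 6 to 8 weeks had been sensitized by intraperitoneal injection of ovalbumin (OVA) with alum, or of PBS with alum. From gestation day 4 to day 17 they received OVA or PBS intranasally, so that sensitization, mating and intranasal dosing were common to both groups and the agent differed. Fetal lungs were taken on gestation day 18, and the data hold 1 library per group, made from the pooled fetuses of 1 mother. Group 2 innate lymphoid cells (ILC2s, sorted as CD45+ Lin- ST2+), CD45+ immune cells and EpCAM+ epithelial cells had been sorted and mixed before nuclei were isolated. Because each group is a single library, no test between groups exists: every difference is one between libraries, and dam, library and treatment cannot be told apart. Every interval is an exact 95% interval that covers counting error only.

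A dividing cell copies its DNA in S phase and separates the copies in mitosis. Replication origins are licensed by loading the MCM helicase, which opens the double helix ahead of DNA polymerases held on the template by the clamp PCNA, while ribonucleotide reductase supplies the nucleotides. In mitosis condensins and topoisomerase II compact and untangle the chromosomes, kinetochores tie them to the spindle, motor proteins push the spindle apart, and cytokinesis parts the daughter cells under the control of cyclin-dependent and Aurora kinases. Transcription of the replication genes is driven by E2F factors in late G1 and S phase. Many mitosis genes carry a cell-cycle homology region (CHR) and CCAAT boxes near their starts and are repressed in resting cells by the DREAM complex. In the lung before birth epithelium and stroma still grow, and fetal macrophages multiply within the tissue.

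The start regions of 7 members are printed because they show the letters that set the replication genes apart from the mitosis genes. Each is 270 bases on the minus strand of GRCm38.p6 from RefSeq, read 5′ to 3′ toward the gene, from 250 bases before the start to 20 bases after it. Capitals mark the words searched for on both strands: the E2F words TTTCCCGC, TTTCGCGC, TTTGCCGC and TTTGGCGC, the CHR words TTTGAA and TTCGAA, and CCAAT. Words that overlap run together in capitals. Pola1, Mcm6 and Mcm10 are replication genes, and Mki67, Top2a, Kif23 and Cdk1 are mitosis genes that the results below turn on.
Pola1, chrX:93632136-93632405: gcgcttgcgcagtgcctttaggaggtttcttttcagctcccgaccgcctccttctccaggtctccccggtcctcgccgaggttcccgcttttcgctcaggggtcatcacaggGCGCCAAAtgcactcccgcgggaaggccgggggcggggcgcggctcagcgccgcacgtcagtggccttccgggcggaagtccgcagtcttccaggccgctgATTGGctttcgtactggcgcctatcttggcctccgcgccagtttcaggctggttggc
Mcm6, chr1:128359686-128359955: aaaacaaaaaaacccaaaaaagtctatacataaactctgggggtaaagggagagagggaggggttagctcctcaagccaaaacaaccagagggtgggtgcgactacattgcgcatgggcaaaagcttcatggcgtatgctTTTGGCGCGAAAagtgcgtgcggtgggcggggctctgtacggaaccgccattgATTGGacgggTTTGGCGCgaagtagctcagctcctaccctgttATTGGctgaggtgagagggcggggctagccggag
Mcm10, chr2:5012772-5013041: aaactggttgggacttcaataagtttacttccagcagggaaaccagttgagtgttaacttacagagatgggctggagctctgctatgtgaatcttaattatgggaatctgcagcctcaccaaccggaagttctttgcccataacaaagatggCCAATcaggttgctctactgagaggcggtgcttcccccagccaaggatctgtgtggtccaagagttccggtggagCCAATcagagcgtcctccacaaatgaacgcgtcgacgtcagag
Mki67, chr7:135716360-135716629: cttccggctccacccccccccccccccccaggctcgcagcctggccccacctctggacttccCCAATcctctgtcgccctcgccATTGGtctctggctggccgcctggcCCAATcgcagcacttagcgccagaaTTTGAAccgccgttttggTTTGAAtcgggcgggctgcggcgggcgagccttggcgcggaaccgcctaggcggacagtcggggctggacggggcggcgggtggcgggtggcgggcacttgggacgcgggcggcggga
Top2a, chr11:99024170-99024439: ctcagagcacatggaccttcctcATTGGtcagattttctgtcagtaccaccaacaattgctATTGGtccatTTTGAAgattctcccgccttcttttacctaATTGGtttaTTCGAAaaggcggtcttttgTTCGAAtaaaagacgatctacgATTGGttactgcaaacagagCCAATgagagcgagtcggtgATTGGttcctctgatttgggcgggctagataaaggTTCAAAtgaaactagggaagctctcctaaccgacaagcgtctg
Kif23, chr9:61946780-61947049: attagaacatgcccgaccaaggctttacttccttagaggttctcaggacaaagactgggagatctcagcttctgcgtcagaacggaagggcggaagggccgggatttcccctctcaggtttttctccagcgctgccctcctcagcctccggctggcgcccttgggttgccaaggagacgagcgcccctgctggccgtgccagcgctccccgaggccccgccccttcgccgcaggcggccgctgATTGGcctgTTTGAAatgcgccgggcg
Cdk1, chr10:69352893-69353162: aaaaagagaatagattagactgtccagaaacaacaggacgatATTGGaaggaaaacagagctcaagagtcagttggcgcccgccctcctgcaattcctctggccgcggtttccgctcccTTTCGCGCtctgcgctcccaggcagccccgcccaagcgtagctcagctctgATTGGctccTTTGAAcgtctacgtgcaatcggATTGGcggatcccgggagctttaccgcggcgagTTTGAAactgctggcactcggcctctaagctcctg

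In these stretches Pola1 held 1 E2F word and Mcm6 held 3, of which 2 overlap, whereas neither held a CHR word. Mki67, Top2a, Kif23 and Cdk1 held 2, 4, 1 and 2 CHR words together with 3, 6, 1 and 3 CCAAT boxes, and Cdk1 also held 1 E2F word. Mcm10 held 2 CCAAT boxes only, and its RefSeq start lies 447 bases from the start in the deposited annotation. A RefSeq window was found for 35 of the 43 members and covers 300 bases, 250 before the start and 50 after it. An E2F word stood in 9 of 18 S-phase windows (50%), in 3 of 17 mitosis windows (17.6%) and in 2.70% of all 20262 windows. A CHR word stood in 4 S-phase windows (22.2%) and in 15 mitosis windows (88.2%), against 17.9% of all windows. CCAAT was found in 14 S-phase windows (77.8%) and 14 mitosis windows (82.4%), against 38.4% of all. A CHR word together with CCAAT was found in 12 mitosis windows (70.6%) and in 7.22% of all windows. These are matches of letters and not measured binding. Mcm4, Gins2, Pole, Atad2, Smc4, Tpx2, Ccna2 and Aurkb had no window in the table.

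Nuclei were assigned to 4 gated cell types by fixed markers. A nucleus entered a gate with UMIs of at least 3 distinct markers of that type and a lead of at least 2 markers over any other type. The gates held 301 PBS and 488 OVA nuclei for ILC2s, 108 and 233 for macrophages, 490 and 552 for epithelium, and 1359 and 1772 for stroma, which was not a sorted population. All markers of a type were detected in its own gate in both libraries. The rule of entry used these markers, so this and their high sum in that gate are no check of identity. The summed ILC2 markers stood at 15763 and 17268 CPM in the ILC2 gate, and the macrophage, epithelial and stromal marker lists stood between 79.9 and 689.9 CPM there. The mast cell or basophil list was higher in the ILC2 gate, at 1653 and 2300 CPM, and 2.25% of OVA ILC2 nuclei fell with mast cell or basophil-like nuclei when nuclei were clustered. Of genes that no gate used, Rora was at 3533 and 5258 CPM in ILC2s, Ctss at 556 and 291 CPM in macrophages and Fn1 at 4125 and 6193 CPM in stroma. Each was highest there among the 4 gates. Vim, set aside for stroma, was higher in macrophages (911 and 709 CPM) than in stroma (392 and 371 CPM). The epithelial gene Sftpc, at 13825 and 11276 CPM in epithelium, was read at 606 and 363 CPM in ILC2 nuclei. The libraries differed in depth and quality: the PBS library had 8019 barcodes, 11473351 gene UMIs and 45.2% mitochondrial UMIs, and the OVA library 5960, 13774959 and 29.2%. Median nuclear-gene UMIs ran from 501 to 1153.5 over the PBS gates and from 925 to 1738.5 over the OVA gates. The gates left 2021 PBS nuclei (47.2% of those kept) and 1951 OVA nuclei (39.1%) in no gate.

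Macrophages had the highest summed levels of both gene sets, ILC2s came next, and stroma and epithelium were lowest in both libraries, with 1 exception: the S-phase sum of macrophages and ILC2s did not differ beyond counting error in the PBS library. The 22 S-phase genes summed to 855 (699.7 to 1034) CPM in PBS and 1211 (1104 to 1326) CPM in OVA macrophages. In ILC2s the S-phase sum was 790.1 (665 to 931) and 709.5 (639 to 785) CPM. Stroma had 475 (439 to 513) and 511 (486 to 536) CPM, and epithelium 307 (274 to 342) and 329.7 (303 to 358) CPM. The order of the 3 lower gates was the same in both libraries and their intervals did not overlap.

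The 21 mitosis genes summed to 1516 (1307 to 1749) CPM in PBS and 1593 (1469.7 to 1723) CPM in OVA macrophages. In ILC2s they summed to 746 (625 to 883) and 890.2 (811 to 975) CPM. Stroma had 528 (490.2 to 568) and 659 (631 to 687) CPM, and epithelium 443 (404 to 486) and 383 (353 to 413) CPM. These sums rested on 134 to 719 UMIs in the PBS gates and on 468 to 2109 UMIs in the OVA gates, and the macrophage sum was above every other gate in both libraries. On the log2 scale the macrophage sum exceeded that of ILC2s by 1.02 (0.70 to 1.35) in the PBS and 0.84 (0.66 to 1.02) in the OVA library, 2.03-fold and 1.79-fold, against a median over all genes tested of -0.013 and 0.20. Epithelium lay below ILC2s with a log2 ratio of -0.75 (-1.03 to -0.46) and -1.22 (-1.39 to -1.04), and stroma with -0.50 (-0.77 to -0.22) and -0.43 (-0.58 to -0.29). For the S-phase sum the ratios to ILC2s were 0.11 (-0.26 to 0.49) and 0.77 (0.57 to 0.97) in macrophages, -1.37 (-1.65 to -1.07) and -1.11 (-1.30 to -0.91) in epithelium, and -0.74 (-1.0 to -0.46) and -0.47 (-0.64 to -0.31) in stroma. All-gene medians of the epithelial and stromal comparisons were above 0, from 0.25 to 0.31, so the members lay below ILC2s while the median gene tested lay above. Genes tested had at least 30 UMIs over both groups, so those high in the larger epithelial and stromal gates entered more easily.

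Several values limit these sums. The intervals treat UMIs as independent, but the tenth of nuclei with the most held 53.7% to 84.8% of the mitosis UMIs of a gate, so they are too narrow. Barcodes with under 200 genes held 543 and 296 CPM of the S-phase genes and 587 and 524 CPM of the mitosis genes. The PBS values were above both sums of PBS stroma and epithelium, and in the OVA library the mitosis value was above that of epithelium. The part of free RNA in the epithelial and stromal values was not tested. With at most 20% mitochondrial UMIs the OVA stroma over ILC2 mitosis ratio turned to 0.30 and the OVA macrophage over ILC2 S-phase ratio to -0.18, the latter from 16 UMIs of 14 macrophage nuclei. With cell types from clusters, the PBS macrophage S-phase ratio was 0.90 in place of 0.11.

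**Figure D1:**
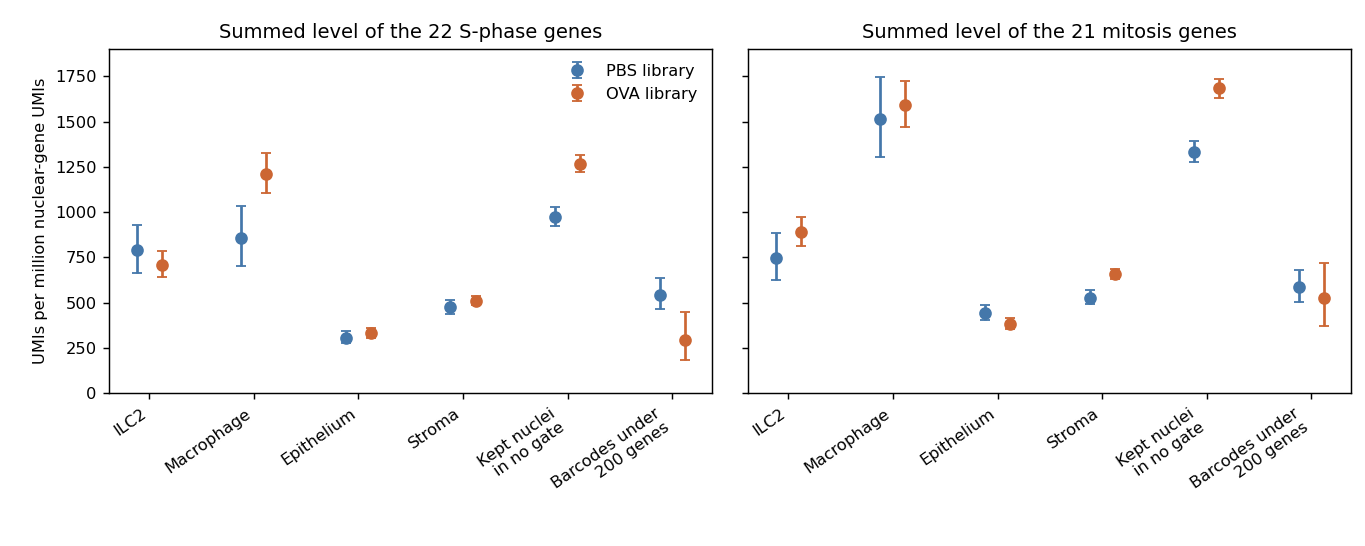
Summed level of the 22 S-phase genes (left) and the 21 mitosis genes (right) in CPM, for each gate, for kept nuclei in no gate and for barcodes under 200 genes. Points are the PBS and OVA libraries and bars are exact 95% Poisson intervals; gated macrophages (1516 and 1593) and nuclei in no gate (1334 and 1684) have the highest mitosis sums.

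Nuclei in no gate had sums of the size of those of macrophages. Their S-phase sum was 975 (924 to 1027) CPM in PBS and 1266 (1220.5 to 1313) CPM in OVA nuclei, and their mitosis sum was 1334 (1275 to 1395) and 1684 (1631 to 1737) CPM. Clustering, added after the data had been seen and made without the members, put 50.1% of PBS and 59.6% of OVA nuclei in no gate into Macrophage-like clusters. The macrophage gate therefore held a small part of the macrophage-like nuclei: 108 and 233 nuclei, against 1143 and 1413 in those clusters. Its make-up also differed from theirs. The cluster led by C1qa held 34 of the 108 gated PBS nuclei but 47 of the 1143, and 40 of the 233 OVA nuclei but 54 of the 1413. In the PBS library its S-phase sum was 658 CPM, against 1399.5 CPM in the cluster led by Sh2d1b1, which held 27 of the 108 and 800 of the 1143. Over whole clusters the Macrophage-like sums were 1263 and 1465 CPM for S-phase and 1807 and 1884 CPM for mitosis genes. ILC2-like clusters had 676 and 699.8 CPM for S-phase and 721 and 879 CPM for mitosis genes, so the gap between the types was wider by clusters than by gates.

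Single members followed, ordered by role. In each pair of levels below the PBS library stands first and the OVA library second. A member was called higher or lower between a pair of groups when its levels differed at least 2-fold, the exact interval of the ratio left out equality, and it had at least 30 UMIs over both. Over the 4 gates and both libraries the members held from 32 UMIs (Cdc45) to 1243 UMIs (Smc4). Per kb of gene span Pcna had 108 UMIs, Smc4 41.6, Mki67 18.6, Pola1 1.74 and Brip1 0.89, so raw levels of different genes cannot be ranked as transcript numbers. The floor, the level of 3 UMIs, was highest in the PBS macrophage gate at 24.2 CPM and lowest in the OVA stroma gate at 0.937 CPM. In the PBS ILC2 gate it was 16.7 CPM. Members with 0 UMIs numbered 6 in PBS ILC2s (Gins2, Tyms, E2f8, Bub1, Aurka and Aurkb), 3 in PBS macrophages (Rrm2, Aurka and Aurkb), and 1 each in OVA ILC2s (Cdc6) and OVA macrophages (Gins2). In epithelium and stroma every member had a UMI in both libraries. Coordinates below are those of the deposited gene annotation on mm10 (GRCm38) and span the whole gene.

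Among the MCM helicase genes, Mcm4 and Mcm6 were the most counted. Mcm4 (ENSMUSG00000022673; chromosome 16, 15623897 to 15637400, minus strand), a helicase subunit, was at 22.3 and 43.7 CPM in ILC2 nuclei, 56.4 and 41.2 in macrophage nuclei, 13.3 and 9.61 in epithelial nuclei and 49.2 and 66.5 in stromal nuclei. Mcm4 was thus lowest in epithelium in both libraries, and called lower there than in ILC2s in the OVA library, with a log2 ratio of -2.19 (-3.20 to -1.20). Mcm6 (ENSMUSG00000026355; chromosome 1, 128331590 to 128359664, minus strand) was at 24.2 and 77.3 CPM in macrophages, 44.5 and 41.8 in ILC2s, 23.5 and 21.55 in stroma and 16.1 and 19.8 in epithelium, and was called lower in OVA epithelium than in OVA ILC2s at -1.08 (-1.90 to -0.23). Mcm3 was at 44.5 and 13.3 CPM in ILC2s and 48.4 and 28.4 in macrophages, against 7.60 and 9.01 in epithelium and 16.2 and 12.2 in stroma, and PBS stroma was called lower than PBS ILC2s at -1.46 (-2.68 to -0.085). Mcm5 was at 16.7 and 20.9 CPM in ILC2 nuclei, 8.06 and 36.1 in macrophage nuclei, 3.80 and 4.80 in epithelial nuclei and 10.3 and 6.87 in stromal nuclei, with OVA stroma called lower than ILC2s at -1.61 (-2.71 to -0.42). Mcm2 and Mcm7, the remaining subunits, were called in no comparison. The 6 subunits together lay below ILC2s in epithelium by log2 -1.81 (-2.46 to -1.15) and -1.38 (-1.83 to -0.93).

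The licensing and firing genes did not move together. Cdt1 (ENSMUSG00000006585; chromosome 8, 122568015 to 122573554, plus strand), which loads the helicase onto origins, was at 27.8 and 32.3 CPM in ILC2 nuclei, 40.3 and 12.9 in macrophage nuclei, 5.70 and 7.21 in epithelial nuclei and 6.61 and 5.31 in stromal nuclei, and OVA stroma was called lower than OVA ILC2s at -2.61 (-3.67 to -1.55). Mcm10 (ENSMUSG00000026669; chromosome 2, 4989714 to 5012791, minus strand), which activates the loaded helicase, was at 16.1 and 12.9 CPM in macrophages, 11.1 and 3.80 in ILC2s, 2.94 and 7.18 in stroma and 6.65 and 22.8 in epithelium. It was the single S-phase member called higher than in ILC2s in epithelium or stroma, with 38 UMIs in OVA epithelium against 2 in OVA ILC2s, a log2 ratio of 2.58 (0.63 to 5.68). As a group the licensing genes of epithelium lay at -1.15 (-2.20 to -0.0027) against ILC2s in PBS nuclei and at -0.00033 (-0.68 to 0.73) in OVA nuclei. Mcm10 gave 38 of the 76 OVA UMIs, and without it the OVA ratio was -0.87 (-1.67 to -0.047). Cdc6, Cdc45 and Gins2 were called in no comparison.

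Of the nucleotide supply genes, Rrm1 (ENSMUSG00000030978; chromosome 7, 102441695 to 102469771, plus strand), the large subunit of ribonucleotide reductase, was at 72.3 and 64.7 CPM in ILC2s and 64.5 and 87.6 in macrophages, against 35.1 and 30.03 in epithelium and 49.95 and 52.2 in stroma. It was called lower in epithelium than in ILC2s in both libraries, at -1.04 (-1.99 to -0.0061) and -1.11 (-1.76 to -0.43). Rrm2 and Tyms, which make deoxyribonucleotides and thymidylate, were called in no comparison. Pola1 (ENSMUSG00000006678; chromosome X, 93304767 to 93632155, minus strand), the catalytic subunit of the polymerase that primes DNA synthesis, was at 150.2 and 150.3 CPM in ILC2 nuclei, 169 and 253 in macrophage nuclei, 34.2 and 42.6 in epithelial nuclei and 62.4 and 48.1 in stromal nuclei. Pola1 was the single S-phase member called lower than in ILC2s in both epithelium and stroma of both libraries. The ratios to ILC2s were -2.14 (-2.90 to -1.36) and -1.82 (-2.30 to -1.34) in epithelium and -1.27 (-1.91 to -0.58) and -1.64 (-2.04 to -1.23) in stroma. Pole, the leading-strand polymerase, was at 8.06 and 23.2 CPM in macrophages, 22.3 and 30.4 in ILC2s, 6.61 and 7.495 in stroma and 5.70 and 4.204 in epithelium, and was called lower in OVA stroma at -2.02 (-2.99 to -1.01). Pcna (ENSMUSG00000027342; chromosome 2, 132249162 to 132253314, minus strand), the sliding clamp, was at 55.6 and 62.8 CPM in ILC2s and 56.4 and 43.8 in macrophages, against 45.6 and 40.2 in epithelium and 54.4 and 60.3 in stroma. Pcna thus stood between 40.2 and 62.8 CPM in all 8 groups and was called in no comparison, unlike Pola1.

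Among the fork protection and chromatin genes, Atad2 (ENSMUSG00000022360; chromosome 15, 58094044 to 58135082, minus strand), a bromodomain ATPase of replicating chromatin, was at 161 and 250 CPM in macrophages, 128 and 124 in ILC2s, 90.4 and 123 in stroma and 56 and 66.1 in epithelium. It was called lower in PBS epithelium than in PBS ILC2s at -1.19 (-1.91 to -0.43) and higher in OVA macrophages than in OVA ILC2s at 1.02 (0.55 to 1.49). Brip1 (ENSMUSG00000034329; chromosome 11, 86058138 to 86201193, minus strand), a helicase that works with BRCA1 at damaged forks, was at 33.4 and 17.1 CPM in ILC2 nuclei, 24.2 and 82.5 in macrophage nuclei, 4.75 and 10.2 in epithelial nuclei and 6.61 and 14.4 in stromal nuclei. In the OVA library it was called higher in macrophages than in ILC2s at 2.27 (1.17 to 3.52). Hells, a chromatin remodeller, was at 44.5 and 39.9 CPM in ILC2s and 24.2 and 77.3 in macrophages, against 17.1 and 11.4 in epithelium and 17.6 and 19.99 in stroma, and was called lower in OVA epithelium at -1.81 (-2.78 to -0.84). Clspn, which carries the replication checkpoint signal, and the repressor E2f8 were called in no comparison.

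Of the chromosome structure genes, Smc4 (ENSMUSG00000034349; chromosome 3, 69004738 to 69034623, plus strand), a condensin subunit and the most counted member, was at 111 and 194 CPM in ILC2 nuclei, 266 and 307 in macrophage nuclei, 139.6 and 138 in epithelial nuclei and 118 and 135 in stromal nuclei. It was called higher in PBS macrophages than in PBS ILC2s at 1.26 (0.41 to 2.14). Mki67 (ENSMUSG00000031004; chromosome 7, 135689784 to 135716361, minus strand), which coats mitotic chromosomes and is the common marker of dividing cells, was at 137 and 134 CPM in macrophages, 100.2 and 87.5 in ILC2s, 47.7 and 70.3 in stroma and 26.6 and 26.4 in epithelium. Mki67 was called lower in epithelium than in ILC2s at -1.91 (-2.82 to -0.97) and -1.73 (-2.36 to -1.10), and in PBS stroma at -1.07 (-1.84 to -0.23). Top2a (ENSMUSG00000020914; chromosome 11, 98992943 to 99024189, minus strand), the DNA-untangling topoisomerase, was at 66.8 and 110.3 CPM in ILC2s and 113 and 157 in macrophages, against 40.8 and 23.4 in epithelium and 68.3 and 94.3 in stroma. Epithelium was called lower for Top2a in the OVA library, at -2.24 (-2.86 to -1.63). Ncapg, another condensin subunit, was called in no comparison. Smc4 in epithelium did not share the low level of Mki67 and Top2a: it was at 139.6 and 138 CPM, above or near the level in stroma.

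The kinetochore genes were higher in macrophages than in ILC2s in both libraries. Cenpe (ENSMUSG00000045328; chromosome 3, 135212537 to 135273611, plus strand), a kinetochore motor, was at 129 and 126 CPM in macrophages, 44.5 and 41.8 in ILC2s, 23.5 and 40.9 in stroma and 16.1 and 16.8 in epithelium, and was called higher in OVA macrophages than in OVA ILC2s at 1.59 (0.84 to 2.39) and lower in OVA epithelium at -1.32 (-2.17 to -0.44). Knl1, the kinetochore scaffold, was at 27.8 and 41.8 CPM in ILC2 nuclei, 72.6 and 108 in macrophage nuclei, 14.2 and 9.61 in epithelial nuclei and 23.5 and 27.2 in stromal nuclei, with OVA calls of 1.37 (0.59 to 2.19) in macrophages and -2.12 (-3.15 to -1.13) in epithelium. Cenpf (ENSMUSG00000026605; chromosome 1, 189640606 to 189688086, minus strand), a kinetochore and nuclear matrix protein, was at 44.5 and 30.4 CPM in ILC2s and 113 and 38.7 in macrophages, against 28.5 and 13.2 in epithelium and 29.4 and 39 in stroma, and was called lower in OVA epithelium at -1.20 (-2.20 to -0.18). Together the 5 kinetochore and checkpoint genes, with Bub1 and Bub1b, exceeded ILC2s in macrophages by log2 1.63 (0.87 to 2.43) in the PBS and 1.40 (0.98 to 1.83) in the OVA library. The checkpoint genes Bub1 and Bub1b were called in no comparison.

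Among the spindle genes, Kif23 (ENSMUSG00000032254; chromosome 9, 61915905 to 61946774, minus strand), a motor of the central spindle, was at 83.5 and 118 CPM in ILC2 nuclei, 137 and 97.9 in macrophage nuclei, 37 and 45 in epithelial nuclei and 19.1 and 29 in stromal nuclei. Kif23 was called lower than in ILC2s in PBS epithelium at -1.17 (-2.06 to -0.21), in OVA epithelium at -1.39 (-1.89 to -0.88), in PBS stroma at -2.13 (-3.10 to -1.11) and in OVA stroma at -2.02 (-2.50 to -1.53), so that stroma was the lowest of the 4 gates. Kif11 (ENSMUSG00000012443; chromosome 19, 37376403 to 37421859, plus strand), the motor that separates the spindle poles, was at 55.6 and 66.6 CPM in ILC2s and 24.2 and 43.8 in macrophages, against 8.55 and 13.2 in epithelium and 31.6 and 39.7 in stroma, and was called lower in OVA epithelium at -2.33 (-3.17 to -1.52). Kif15 (ENSMUSG00000036768; chromosome 9, 122951046 to 123018733, plus strand), which shares that task, was at 129 and 162 CPM in macrophages, 22.3 and 45.7 in ILC2s, 19.1 and 32.8 in stroma and 13.3 and 10.2 in epithelium, with OVA calls of 1.83 (1.13 to 2.57) in macrophages and -2.16 (-3.15 to -1.20) in epithelium. Kif15 therefore had its highest level in macrophages, whereas the highest Kif11 level was that of ILC2s, with no call between ILC2s and macrophages. Aspm and Tpx2 were called in no comparison. Spindle genes as a group lay below ILC2s in stroma by -1.07 (-1.59 to -0.52) and -0.86 (-1.14 to -0.58).

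Of the cytokinesis genes, Ect2 (ENSMUSG00000027699; chromosome 3, 27097222 to 27153878, minus strand), which activates the contractile ring, was at 22.3 and 24.7 CPM in ILC2 nuclei, 105 and 90.2 in macrophage nuclei, 36.1 and 22.2 in epithelial nuclei and 18.4 and 16.9 in stromal nuclei. It was called higher in OVA macrophages than in OVA ILC2s at 1.87 (0.91 to 2.91), and Anln, a scaffold of the ring, was called in no comparison. Both together exceeded ILC2s in macrophages by log2 1.80 (0.68 to 3.03) and 1.41 (0.69 to 2.17). Cdk1 (ENSMUSG00000019942; chromosome 10, 69335146 to 69352938, minus strand), the kinase that starts mitosis, was at 24.2 and 30.9 CPM in macrophages, 11.1 and 5.71 in ILC2s, 19.1 and 18.7 in stroma and 14.2 and 6.01 in epithelium. Cdk1 was the single mitosis member called higher in stroma than in ILC2s, in the OVA library at 1.72 (0.099 to 4.03), from 60 UMIs against 3. Ccna2, a cyclin of S phase and mitosis, went the other way: it was at 22.3 and 20.9 CPM in ILC2s and 8.06 and 12.9 in macrophages, against 9.495 and 6.61 in epithelium and 14 and 8.74 in stroma, and was called lower in OVA stroma at -1.26 (-2.31 to -0.10). Ccnb1, the mitotic cyclin partner of Cdk1, and the Aurora kinase genes Aurka and Aurkb were called in no comparison. The 18 members with no call, Pcna apart, had levels between 0 and 88.7 CPM.

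Read against all genes, the members' calls were frequent on the low side of epithelium, and few members were called higher there or in stroma. In PBS macrophages over ILC2s, 0 of 2 S-phase and 1 of 3 mitosis members with enough UMIs were called higher and none lower, against 21.1% of all 2081 genes tested higher and 19.1% lower. For OVA macrophages 2 of 8 and 4 of 10 members were called higher and none lower, with 24.6% higher and 18.8% lower over all genes. In PBS epithelium 3 of 4 and 2 of 6 were called lower and none higher, with 25.6% of all genes higher and 12.7% lower. In OVA epithelium 5 of 8 and 8 of 11 were called lower and 1 S-phase member, Mcm10, higher, with 30.5% of all genes higher and 15.9% lower. In PBS stroma 2 of 8 and 2 of 9 were called lower and none higher, with 23% of all genes higher and 12.7% lower. In OVA stroma 4 of 16 and 2 of 18 were called lower and 1 mitosis member, Cdk1, higher, with 26.3% of all genes higher and 14.6% lower. The share of members called lower in OVA epithelium was thus above the share of all genes. In OVA macrophages the share called higher was near that of all genes for S-phase members and above it for mitosis members. Members that reached 30 UMIs did so partly through the group in which they were high, so these counts describe the members and carry no test.

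**Figure D2:**
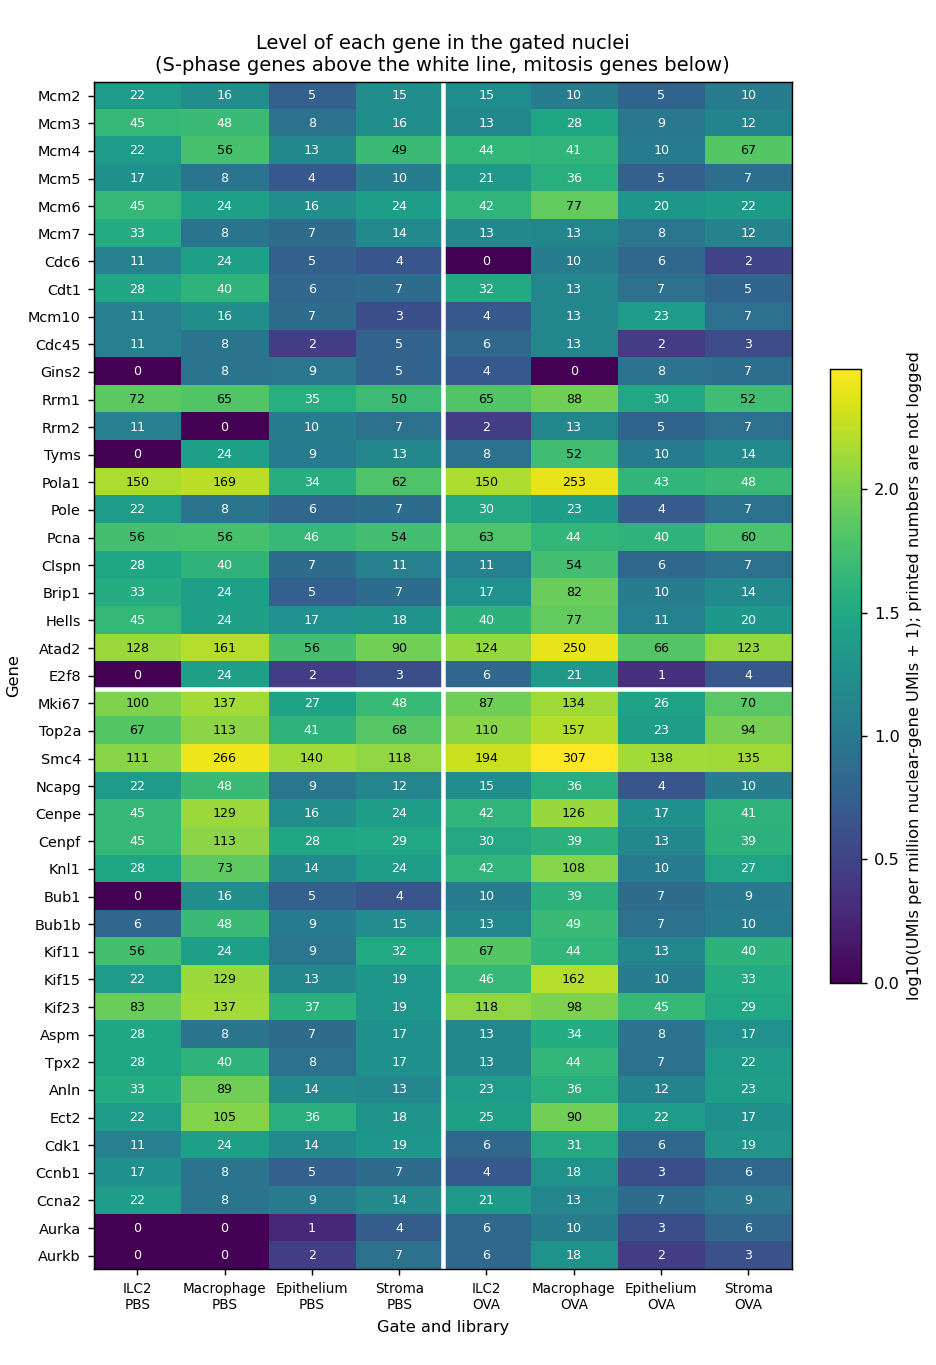
Level of each of the 43 members (rows, by role) in the 4 gates of the PBS and OVA libraries (columns), coloured by log10 of CPM + 1 with CPM printed in each cell. Rows such as Kif15 (129 and 162 CPM in macrophages, 13.3 and 10.2 in epithelium) differ between gates, while Pcna stays between 40.2 and 62.8 CPM.

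Between the libraries, 3 summed differences exceeded counting error, in 3 different gates, and the other 5 did not. The stroma mitosis sum was 528 CPM in the PBS and 659 CPM in the OVA library, a log2 ratio of OVA over PBS of 0.32 (0.20 to 0.44). The macrophage S-phase sum was 855 and 1211 CPM, a ratio of 0.50 (0.20 to 0.82). The gated macrophages lay in different clusters in the 2 libraries: the cluster led by Nrg4 held 24.1% of PBS and 56.2% of OVA gated macrophages, and the one led by C1qa 31.5% and 17.2%. Within those clusters the gated nuclei had S-phase sums of 1298 (953 to 1726) and 1572 (1416 to 1741) CPM, and of 689 (385 to 1136) and 717 (505 to 988) CPM. In the other Macrophage-like clusters they had 1144 (766 to 1642.5) and 1261.5 (874 to 1763) CPM, and 243 (111 to 461) and 407 (268 to 592) CPM. The OVA value was the higher in each, with overlapping intervals that rested on 9 to 47 PBS UMIs. Over all nuclei of Macrophage-like clusters the sums were 1263 (1192 to 1338) and 1465 (1412 to 1519) CPM. The part of the cluster mix was not tested. The epithelial mitosis sum went the other way, from 443 to 383 CPM, at -0.21 (-0.39 to -0.038), but this difference rested on few nuclei. Of the PBS epithelial gate, 27 nuclei that lay in clusters other than the Epithelium-like ones held 181 of its 467 mitosis UMIs. Of the 27, 6 lay in the Endothelium-like cluster and held 107 of these UMIs. Another 15 lay in an unnamed cluster led by Dnah5 and Rp1 and held 72, with endothelial markers at 38.6 CPM. Of the fixed marker lists the epithelial one matched that cluster best, though too weakly to name it. Endothelial markers stood at 342 CPM in PBS and 168 CPM in OVA epithelial nuclei, and their part was not tested. A restriction to nuclei in Epithelium-like clusters was chosen after the data had been seen, and also left out the unnamed cluster. With it the mitosis sum was 330 and 347 CPM, a ratio of 0.071 (-0.14 to 0.29), with endothelial markers at 61.2 and 48.5 CPM. In fold these are 1.25, 1.42 and 0.863, all below the 2-fold of the call rule. The medians over all genes tested were -0.012 in stroma, 0.19 in macrophages and -0.013 in epithelium.

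In ILC2s, the cell type the study centred on, neither sum differed beyond counting error. Their S-phase ratio was -0.16 (-0.44 to 0.13) and their mitosis ratio 0.26 (-0.024 to 0.54), beside an all-gene median of 0.068, so that differences of up to 0.44 downward and 0.54 upward lie within these intervals. Of the 142 PBS S-phase UMIs, 25 lay in 15 gated nuclei outside the ILC2-like cluster. Within that cluster the gated nuclei had S-phase sums of 713 (590 to 855) CPM in PBS and 701 (628 to 780) CPM in OVA nuclei. The macrophage mitosis ratio was 0.071 (-0.17 to 0.31), and the S-phase ratios of epithelium and stroma were 0.10 (-0.097 to 0.31) and 0.11 (-0.026 to 0.24). The ILC2 mitosis ratio was -0.051 with doublet calls kept and -0.030 with the joint filter on counts, so its sign rests on those settings. Epithelial mitosis turned to 0.089 by clusters, 0.055 with 4 markers and a lead of 3, and 0.48 with at most 20% mitochondrial UMIs, besides the restriction to Epithelium-like clusters. The stroma mitosis ratio kept its sign under all 11 alternatives, from 0.13 to 0.52. The cluster mix also differed in gated stroma: the cluster led by C7 held 34.9% of PBS and 58.2% of OVA nuclei. Its gated nuclei had mitosis sums of 443 (388 to 504) and 510 (479 to 542) CPM, with overlapping intervals. The cluster led by Slc38a5 held 303 and 78 gated nuclei, with 458 (356 to 579) and 438 (267 to 676) CPM. Those led by Nrxn3 and Ptn had 323 and 545 CPM, and 525 and 854 CPM, without overlap. The part of this mix was not tested.

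Divided by role, the stroma difference was shared by most mitosis roles. Its chromosome structure genes had a ratio of 0.33 (0.15 to 0.51), kinetochore genes 0.41 (0.12 to 0.71) and spindle genes 0.45 (0.17 to 0.73), and the fork protection and chromatin genes of S phase 0.39 (0.14 to 0.65). The kinases and cyclins of stroma were at -0.29 (-0.71 to 0.15), an interval that included equality. Helicase genes stood at 0.0048 (-0.25 to 0.27) and polymerase genes at -0.091 (-0.36 to 0.18). In macrophages the fork group was the single role whose interval left out equality, with 249.9 CPM in PBS and 464 CPM in OVA nuclei and a ratio of 0.89 (0.34 to 1.49). In epithelium the licensing genes were at 0.73 (0.094 to 1.40), a value carried by Mcm10, without which they were at 0.13 (-0.67 to 0.96), and the kinetochore genes at -0.45 (-0.91 to 0.0072). In ILC2s the chromosome structure genes were at 0.44 (0.0014 to 0.90), and every other role had an interval that included equality.

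**Figure D3:**
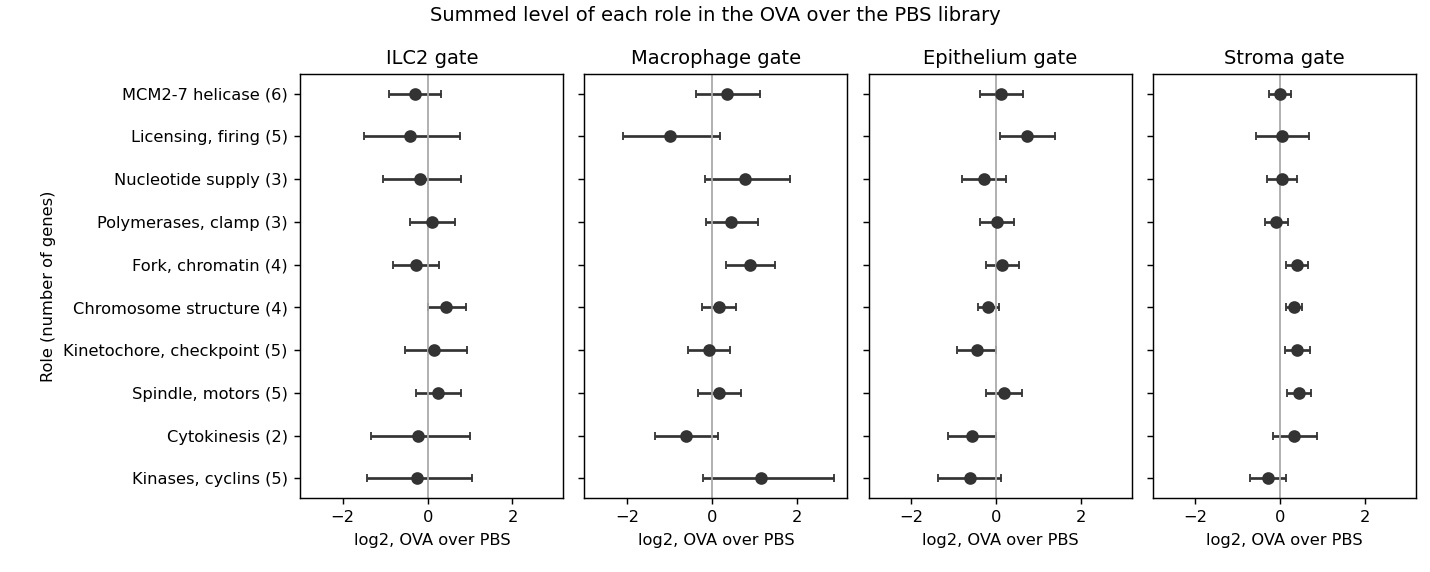
Log2 ratio of OVA over PBS of the summed CPM of each of 10 roles, in 1 panel per gate, with exact 95% conditional binomial intervals and a line at equality. In stroma the fork, chromosome, kinetochore and spindle groups lie above 0, while most ILC2 intervals cross it.

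Single members were rarely called between the libraries. Brip1 was called higher in the OVA library in macrophages, at 1.77 (0.093 to 4.12) from 3 and 32 UMIs, and in stroma, at 1.12 (0.072 to 2.34) from 9 and 46 UMIs. The macrophage call was lost when ratios were centred on the all-gene median. Mcm10 was called higher in OVA epithelium at 1.78 (0.60 to 3.19), from 7 and 38 UMIs. Cenpf was called lower there at -1.11 (-1.97 to -0.27), from 30 and 22 UMIs. Among gated nuclei in clusters of the same name, the calls of Brip1 in macrophages and of Mcm10 were kept, Brip1 in stroma was at 1.09 (-0.31 to 2.83) and not called, and Cenpf had 25 UMIs, too few for a call. Smc4 in ILC2s, at 1.04 (0.27 to 1.91), and Cenpe and Anln in stroma, at 1.41 (0.61 to 2.30) and 1.15 (0.16 to 2.28), were then called higher. These were 1 of 6 S-phase members tested in macrophages, 1 of 8 in epithelium and 1 of 16 in stroma called higher, and 1 of 11 mitosis members in epithelium called lower. Over all genes tested 5.65%, 2.36% and 1.13% were called higher in those gates and 3.75%, 2.41% and 2.48% lower. In ILC2s none of 5 S-phase and 6 mitosis members was called, beside 4.35% of all genes higher and 2.37% lower.

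The rest of the pathway was described by 4 further lists: 40 other S-phase genes, 41 other mitosis genes, 10 G1 cyclins, kinases and pocket proteins, and 13 cell cycle inhibitors. The other mitosis genes had the same order of gates as the members. In OVA macrophages over ILC2s 7 of 13 tested were called higher and none lower, with a summed log2 ratio of 1.09 (0.92 to 1.25). In OVA epithelium 8 of 11 were called lower and none higher, at -0.80 (-0.96 to -0.64), and in OVA stroma 5 of 25 lower, at -0.43 (-0.57 to -0.29). Over all genes tested 24.6% were called higher in OVA macrophages, and 15.9% and 14.6% lower in OVA epithelium and stroma. The stromal share of the list was near that of all genes. In PBS macrophages 0 of 2 tested were called, with a summed ratio of 1.03 (0.72 to 1.34). In PBS epithelium 1 of 4 was called lower, at -0.65 (-0.91 to -0.38), and in PBS stroma 1 of 8, at -0.44 (-0.69 to -0.18). Of all genes 12.7% were called lower in each of the 2. The 3 most counted genes of the list were Ckap5 and Diaph3, which organize microtubules and actin, and Cit, a kinase of cytokinesis. Ckap5 was at 83.7 CPM in OVA ILC2s and 214 CPM in OVA macrophages, Cit at 53.3 and 121 CPM, and both were called higher. Diaph3 was called lower than in ILC2s in epithelium and stroma of both libraries, at 251 CPM in OVA ILC2s against 96.1 and 74.0 CPM.

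Of the other S-phase genes in OVA macrophages over ILC2s, 3 of 11 were called higher and none lower, with a sum at 0.48 (0.30 to 0.67). In the PBS library 0 of 1 was called and the sum was at -0.21 (-0.54 to 0.12). In OVA epithelium 5 of 15 were lower and 2 higher, at -0.58 (-0.74 to -0.42). In OVA stroma 7 of 24 were lower and 1 higher, at -0.32 (-0.47 to -0.18). Over all genes tested 24.6% were called higher in OVA macrophages, so 3 of 11 was near that share. In OVA epithelium and stroma 15.9% and 14.6% of all genes were called lower, and 30.5% and 26.3% higher. Their most counted genes were Prim2, a primase subunit, Nasp, a histone chaperone, and Slbp, which binds histone messages. Nasp was at 144.7 CPM in PBS ILC2s and 71.2 CPM in PBS epithelium, where it was called lower, and Slbp was called in no comparison. Prim2 was called higher in OVA macrophages than in OVA ILC2s, at 147 against 62.8 CPM.

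The G1 list was higher in ILC2s than in epithelium and stroma, with Ccnd2 among its D cyclins, which pair with Cdk4 and Cdk6 to start the cycle. Ccnd2 was at 428 CPM in PBS ILC2s, 109 in epithelium and 122 in stroma, and in the OVA library at 377 CPM in ILC2s, 173 in macrophages, 102 in epithelium and 134 in stroma. All of those groups were called lower than ILC2s, and PBS macrophages, at 218 CPM, were not. Ccnd3 was at 403 CPM in OVA ILC2s and 189 CPM in OVA epithelium, also called lower. Ccnd1, the remaining D cyclin, went the other way: it had 0 and 1 UMIs in ILC2s, and was called higher in epithelium of both libraries (53.2 and 28.2 CPM) and in PBS stroma (25.7 CPM). Cdk4, named after its values were seen, was called higher in OVA epithelium and stroma, at 38.4 and 31.9 CPM against 13.3 CPM in OVA ILC2s. Cdk6 was highest in macrophages, at 427 and 531 CPM against 250.4 and 213 CPM in ILC2s, and was called higher in the OVA library. The summed G1 list lay below ILC2s by -0.94 (-1.16 to -0.73) and -1.13 (-1.27 to -0.99) in epithelium and -0.78 (-0.98 to -0.57) and -0.89 (-1.01 to -0.77) in stroma. This sum also holds the pocket protein genes, named here after their values were seen. Rbl2 was called lower than in ILC2s in epithelium and stroma of both libraries, and Rb1 in those of the OVA library. Rbl1 was called in none of these.

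Among the inhibitors, Cdkn1c, an imprinted inhibitor of cyclin-dependent kinases, was called higher than in ILC2s in epithelium and stroma of both libraries. It was at 22.3 and 13.3 CPM in ILC2s, 85.5 and 72.7 CPM in epithelium and 106 and 86.8 CPM in stroma. Cdkn1a went the other way and was called lower than in ILC2s in stroma of both libraries and in OVA epithelium. Its levels were 27.9 against 83.5 CPM in PBS stroma, and 35.3 and 57.1 against 181 CPM in OVA stroma and epithelium. In PBS macrophages it was called higher, at 185 CPM. Of genes named after their values were seen, Cdkn1b was called lower in PBS stroma, and Cdkn2b higher in epithelium of both libraries. Btg2, an antiproliferative gene, was at 584 CPM in OVA ILC2s and 1536 CPM in OVA stroma, where it was called higher. Btg1, of the same family, was called lower in epithelium, at 468 and 422 CPM against 1219 and 913 CPM in ILC2s.

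Between libraries, 13 of 169 tests of genes of the 4 lists over the 4 gates gave a call (7.69%): 1 of 24 in ILC2s, 6 of 24 in macrophages, 2 of 46 in epithelium and 4 of 75 in stroma. Of all genes, 4.35%, 5.65%, 2.36% and 1.13% were called higher in those gates and 2.37%, 3.75%, 2.41% and 2.48% lower. In ILC2s Cdkn1a, the inhibitor p21, was called higher, at 83.5 and 181 CPM (log2 1.11, 0.32 to 2.01), while the summed inhibitors went the other way, at -0.19 (-0.36 to -0.019). In macrophages 6 genes were called higher: Prim2 at 48.4 and 147 CPM (log2 1.60, 0.39 to 3.11), the polymerase subunit gene Pold3 at 16.1 and 74.7 CPM (log2 2.21, 0.23 to 5.33), the fork repair gene Mms22l at 24.2 and 97.9 CPM (log2 2.02, 0.36 to 4.36), the condensin gene Smc2 at 32.3 and 92.8 CPM (log2 1.52, 0.044 to 3.48), the mitotic spindle gene Ckap2l at 48.4 and 159.8 CPM (log2 1.72, 0.52 to 3.22) and the pocket protein gene Rbl1 at 24.2 and 79.9 CPM (log2 1.72, 0.043 to 4.08). These macrophage calls rest on few PBS counts: 24.2 CPM is 3 UMIs there, a floor that Pold3, Mms22l and Rbl1 did not exceed. The lower bounds of Smc2 and Rbl1 also lay below the all-gene median of 0.19. In epithelium the central spindle genes Prc1 and Racgap1 went opposite ways, Prc1 at 26.6 and 10.8 CPM (log2 -1.30, -2.24 to -0.39) and Racgap1 at 8.55 and 18.6 CPM (log2 1.12, 0.018 to 2.38). In stroma the kinesin gene Kif4 was called higher at 11.02 and 30.9 CPM (log2 1.49, 0.70 to 2.38) and the spindle gene Hmmr at 5.88 and 14.7 CPM (log2 1.32, 0.23 to 2.61). Cdca3, a mitotic entry gene, was called lower there at 12.5 and 4.68 CPM (log2 -1.41, -2.52 to -0.32), as was the D cyclin gene Ccnd1 at 25.7 and 6.87 CPM (log2 -1.90, -2.74 to -1.09). The summed other S-phase genes of ILC2s were at -0.36 (-0.60 to -0.12), and the summed inhibitors of stroma at 0.33 (0.27 to 0.40), while no single gene of either sum was called. Called shares of the other S-phase list were 0 of 8 tested in ILC2s, 3 of 6 in macrophages, 0 of 14 in epithelium and 0 of 26 in stroma.

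The share of nuclei with several members was compared at an equal depth of 500 randomly drawn nuclear-gene UMIs per nucleus, since shares grow with depth. Macrophages again had the most such nuclei and epithelium and stroma the fewest. At least 2 distinct mitosis genes were read in 19.8% (12.2 to 29.4, 18 of 91) of PBS and 14.7% (10.4 to 19.96, 34 of 231) of OVA macrophages, with Clopper-Pearson intervals. In ILC2s the shares were 5.30% (2.31 to 10.2, 8 of 151) and 6.12% (4.03 to 8.84, 26 of 425). In stroma they were 1.98% (1.21 to 3.04, 20 of 1011) and 3.12% (2.35 to 4.06, 53 of 1698), and in epithelium, the lowest gate in the OVA library, 2.53% (1.27 to 4.49, 11 of 434) and 1.74% (0.799 to 3.28, 9 of 517). Intervals of the PBS and OVA libraries overlapped in every gate. In nuclei of no gate the shares were 15.8% and 15.6%. No gate is known to lack these genes, so the lowest gate serves as the background of the others. At full depth the order of ILC2s and epithelium was the reverse. Unthinned shares were 5.32% and 8.20% in ILC2s, 27.8% and 29.2% in macrophages, 10.2% and 12.3% in epithelium, and 3.97% and 6.66% in stroma. Median depths were 997 and 1475 UMIs in macrophages and 1153.5 and 1738.5 in epithelium.

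At least 2 distinct S-phase genes were read in 9.89% (4.62 to 17.9, 9 of 91) of PBS and 10.4% (6.77 to 15.1, 24 of 231) of OVA macrophages. The ILC2 shares were 9.27% (5.16 to 15.1, 14 of 151) and 3.76% (2.17 to 6.04, 16 of 425), whose intervals overlapped. Unthinned, the ILC2 shares ran the other way, 8.97% and 13.3%, and thinning left out 150 of 301 PBS and 63 of 488 OVA ILC2 nuclei as too shallow. Stroma had 2.18% and 2.89% and epithelium 1.38% and 1.55%, against unthinned shares of 6.48% and 15.6%, and of 10% and 15.8%. In macrophages the unthinned shares were 19.4% and 29.2%. Thinning also left out 17 PBS and 2 OVA macrophages, 56 and 35 epithelial and 348 and 74 stromal nuclei.

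**Figure D4:**
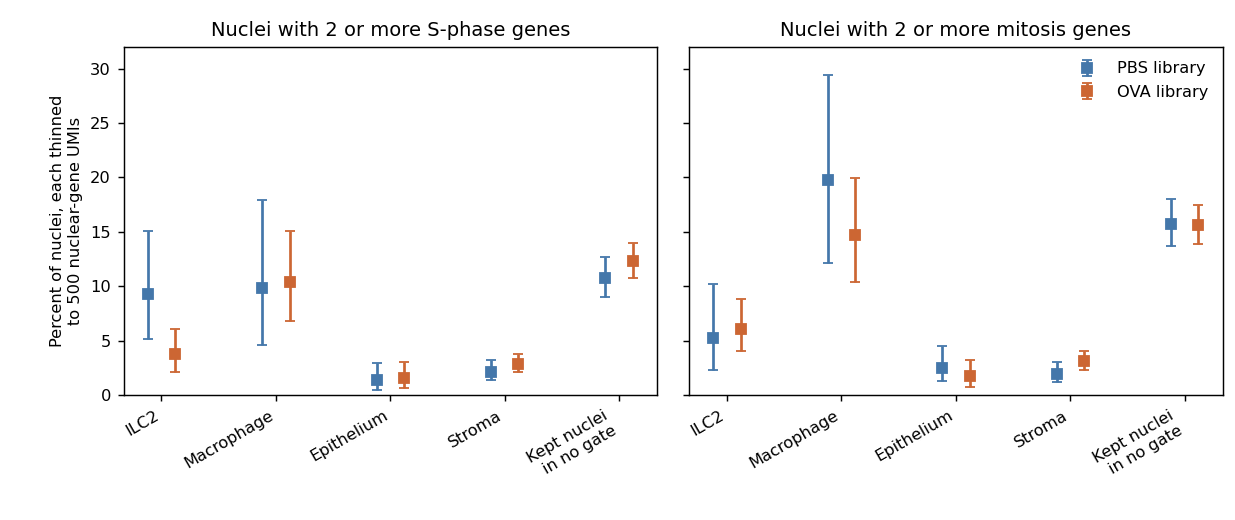
Percent of nuclei, thinned to 500 nuclear-gene UMIs, with UMIs of at least 2 distinct S-phase genes (left) or mitosis genes (right), by gate and library, with Clopper-Pearson 95% intervals. Macrophages have the highest mitosis shares (19.8% and 14.7%), and the intervals of the libraries overlap in every gate.

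Those few nuclei held a large part of the mitosis UMIs, which follows in part from picking them by these genes. After thinning, nuclei with at least 2 mitosis genes held 78.8% and 73.8% of the mitosis UMIs of macrophages, 44.4% and 57.5% of those of ILC2s, 46.7% and 61.4% of those of stroma, and 38.6% and 36.4% of those of epithelium. In epithelium of both libraries, PBS ILC2s and PBS stroma most mitosis UMIs therefore lay in nuclei with a single mitosis gene. The same nuclei also had S-phase UMIs more often than the rest of their gate. In OVA ILC2s 61.5% of them had an S-phase UMI, against 21.6% of the rest. The values were 64.7% and 24.4% in OVA macrophages and 58.5% and 15.9% in OVA stroma. In PBS macrophages they were 55.6% and 28.8%, and in PBS stroma 50% and 17%. PBS epithelium was the exception, with 0 of 11 such nuclei against 11.3% of the rest.

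Chromatin gave a readout of the same nuclei that neither the gates nor the members used. Transposition counts, the number of cuts by the enzyme Tn5 counted in the peaks of a nucleus, were higher in nuclei with at least 2 mitosis genes in all 6 gates and libraries that had at least 10 such nuclei. In OVA ILC2s the median was 13106.5 counts against 7313 in nuclei with 0 or 1, a ratio of 1.79. In OVA stroma it was 13085 against 7745 (1.69), and in PBS stroma 11821 against 6238 (1.90). Over whole Stroma-like clusters the ratios were lower, at 1.26 in OVA nuclei (9627.5 against 7624) and 1.65 in PBS nuclei. PBS epithelium had 15431 against 7866 (1.96). These nuclei also had more nuclear-gene UMIs before thinning, with ratios of medians of 1.83 in OVA ILC2s, 1.64 and 1.65 in OVA and PBS stroma and 1.92 in PBS epithelium. In macrophages the 2 readouts parted: transposition counts had ratios of 1.57 in the PBS (13783.5 against 8769) and 1.52 in the OVA library (13473.5 against 8858), and nuclear-gene UMIs 1.13 and 1.22. Quartile ranges of both kinds of nuclei overlapped in every group but OVA ILC2s, where they ran from 10137 to 15442 against 4442 to 9319. The part of depth, with which both readouts move, was not tested. Nuclei are not replicates, so no test is given.

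**Figure D5:**
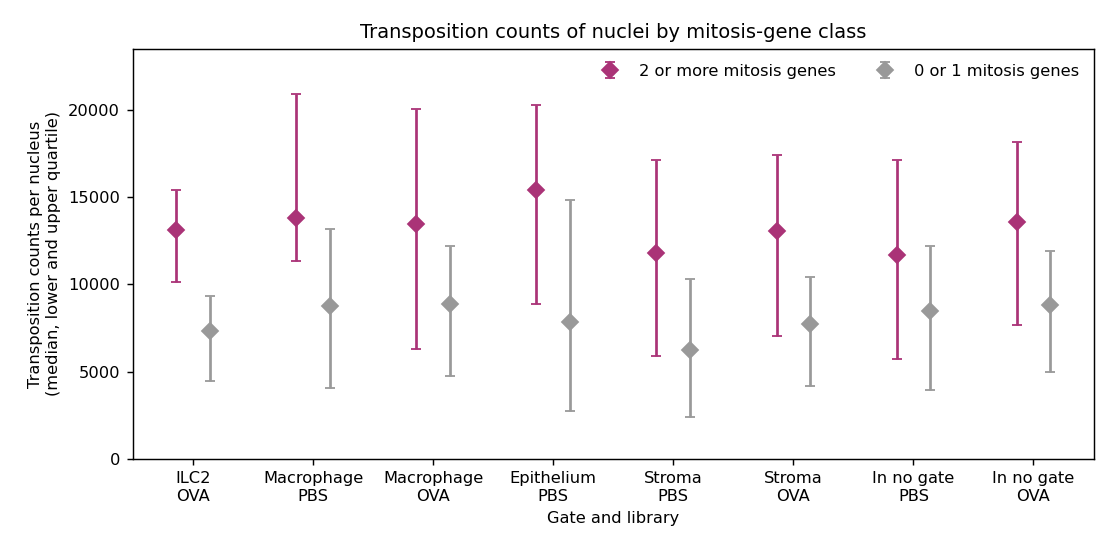
Transposition counts per nucleus (median as a point, quartiles as a bar) for nuclei with at least 2 mitosis genes and with 0 or 1 after thinning, by gate and library, for groups with at least 10 such nuclei. The medians are higher with at least 2 mitosis genes in each group shown, by 1.52-fold in OVA macrophages and 1.96-fold in PBS epithelium, and the quartile ranges overlap except in OVA ILC2s.

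Accessibility at the starts of the members differed much less between cell types than their RNA. A peak within 1 kb of the start was found for 42 of the 43 members in each library, all but Atad2, against 58.0% and 55.9% of all genes in the PBS and OVA libraries. Summed over the mitosis genes (23 peaks), the counts per 1000000 counts in all peaks were 1215 in PBS ILC2s, 1059.9 (log2 ratio to ILC2s -0.20, -0.30 to -0.099) in macrophages, 974 (log2 ratio to ILC2s -0.32, -0.39 to -0.25) in epithelium and 1032 (log2 ratio to ILC2s -0.24, -0.30 to -0.17) in stroma. In the OVA library they were 1191, 1029 (log2 ratio to ILC2s -0.21, -0.28 to -0.14), 1028 (log2 ratio to ILC2s -0.21, -0.27 to -0.15) and 1010.2 (log2 ratio to ILC2s -0.24, -0.29 to -0.19). Macrophages, with the highest RNA sums, were therefore below ILC2s at the starts of the mitosis genes. For the S-phase genes (22 peaks) the values were 1212, 1058, 1098 and 1122 in PBS nuclei and 1122, 1068, 1111 and 1086 in OVA nuclei, for ILC2s, macrophages, epithelium and stroma in that order. ILC2s thus had the highest value for both gene sets in both libraries. No value for the starts of all genes stands beside these sums, so whether ILC2s were higher at starts in general was not tested. Peaks had been called in each library separately, so levels of the PBS and OVA libraries were not compared.

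Within stroma the mitosis sum differed between sub-groups of nuclei split by single markers, and within epithelium it did not differ beyond counting error. Stromal nuclei with Pdgfrb and without Pdgfra UMIs, as in pericytes and smooth muscle, had 894 (755 to 1051) CPM in the PBS library (108 nuclei) and 1072 (951 to 1205) CPM in the OVA library (147 nuclei). Those with Pdgfra and without Pdgfrb, a fibroblast pattern, had 552 (474 to 640) CPM (282 nuclei) and 868 (806 to 933) CPM (411 nuclei). The Pdgfrb nuclei were higher in both libraries, and both kinds were higher in the OVA library. Epithelial nuclei with Ager or Rtkn2 and without Abca3, as in alveolar type 1 cells, had 406 (321 to 508) and 399 (342 to 463) CPM. Those with Abca3 and without Ager or Rtkn2, as in alveolar type 2 cells, had 296 (211 to 405) and 432 (357 to 518) CPM, and all 4 of these intervals overlapped. A nucleus without a UMI of a marker may still express it, so these splits are partial.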

How the data were processed

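The RNA and open chromatin of nuclei of fetal mouse lung on gestation day 18 were measured in 1 PBS and 1 OVA library. The groups came from the labels of the samples. Adult libraries and those of other treatments were not used here. The authors deposited unnormalized counts, made with Cell Ranger ARC 2.0.1 on mm10 (GRCm38) per the study's methods and the submitters' processing notes: UMI counts of genes, and transposition counts of peaks that had been called library by library. No columns of other samples were used.

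The study's limits were applied: a nucleus needed 200 detected genes or more and no more than 60% mitochondrial UMIs. The first removed 1919 PBS and 454 OVA barcodes for few genes, and 2400 and 457 barcodes exceeded the mitochondrial limit. Doublets were called from 2 simulated doublets per nucleus, at 0.8% per 1000 barcodes, and 293 and 250 nuclei (6.41% and 4.77%) were removed. The 4279 PBS and 4996 OVA nuclei left had a median of 649 and 1212 nuclear-gene UMIs. The libraries shared 54 barcode sequences. Shallower PBS nuclei give the PBS values wider intervals.

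The UMIs of a gate were added up and divided by their nuclear-gene UMIs, without mitochondrial genes. Sums were given exact Poisson, shares Clopper-Pearson and ratios conditional binomial intervals at 95%, which cover counting error only. No test between groups was possible with 1 library per group, so a rule of size took its place: at least 2-fold, an interval without equality and at least 30 UMIs over both groups. It was run on all genes in 10 comparisons and checked on simulated counts. Values in every gate are given for the 6 S-phase and 8 mitosis members with the most UMIs and for every member called in any comparison. Other members are given by count and range, and of the pathway lists the genes called between libraries, or else the 3 with the most UMIs. Shares used nuclei thinned at random to 500 nuclear-gene UMIs. Clusters, an alternative added after the data had been seen, used 3000 variable genes without the members and the pathway lists, 30 principal components, 15 neighbours and Leiden resolution 1. They were named "X-like" from the fixed markers. The members, lists and markers were chosen with earlier results of these data known. The alternatives covered the denominator, the gates, doublets, the filters, the weighting of nuclei, the most counted member, the minimum of UMIs and the centring. A restriction of each gate to nuclei in clusters of the same name, and the licensing genes without Mcm10, were added after the data had been seen. Python 3.11.15, numpy 2.4.6, scipy 1.17.1, pandas 2.3.3, scikit-learn 1.9.0, leidenalg 0.10.2 and matplotlib 3.10.9 were used.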

Additional observations from a re-analysis of the deposited data

Results flagged for a closer look

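The mitosis sum differed between the OVA and PBS libraries in opposite directions in epithelium and stroma. In epithelium it was 443 CPM in the PBS and 383 CPM in the OVA library, a log2 ratio of -0.21 (-0.39 to -0.038). In stroma it was 528 and 659 CPM, a ratio of 0.32 (0.20 to 0.44). The single library of each group moved one way in one gate and the opposite way in the other, and the difference between the gates was not tested. The epithelial ratio was above 0 under 4 alternatives, given below, among them the restriction to gated nuclei in Epithelium-like clusters (0.071, -0.14 to 0.29), and the stromal ratio stayed above 0 under all 11. Mitochondrial UMIs made up 29.7% and 20.03% in the epithelial gate and 30.2% and 19.5% in the stromal gate, and their part in the result was not tested.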

How the results depend on the processing

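Ratios below are log2, over ILC2s (PBS or OVA library) or of OVA over PBS. Alternatives to the summed ratios and the counts of called members gave 180 values within the interval of the main value (counts within 1.5-fold), 48 that moved further and 6 that reversed a ratio whose interval had left out equality. The cause was not tested where none is given. Cell types from clusters, chosen after seeing the data, gave S-phase ratios of macrophages over ILC2s of 0.90 (PBS) and 1.07 (OVA), mitosis ratios over ILC2s of -1.11 for PBS epithelium, -0.81 for PBS stroma, 1.10 for OVA macrophages and -0.69 for OVA stroma, and an OVA over PBS mitosis ratio of 0.089 in epithelium, which reversed it. The joint filter on counts gave PBS S-phase ratios of -1.94 for epithelium and -1.21 for stroma, PBS mitosis ratios of 0.58 for macrophages, -1.30 for epithelium and -1.19 for stroma, -0.65 for mitosis in OVA stroma, and OVA over PBS ratios of -0.46 (S-phase) and -0.030 (mitosis) in ILC2s and 0.52 (mitosis) in stroma. At most 20% mitochondrial UMIs reversed the OVA S-phase ratio of macrophages to -0.18, the OVA mitosis ratio of stroma to 0.30 and the OVA over PBS mitosis ratio of epithelium to 0.48, and moved the OVA mitosis ratios of macrophages and epithelium to 2.01 and -0.64 and the OVA over PBS S-phase ratio of epithelium to 0.57. It left too few PBS ILC2 and macrophage nuclei, so the comparisons that use them gave no value.

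All gene UMIs in the denominator, which brings mitochondrial UMIs in, gave -0.27 (S-phase) and -0.23 (mitosis) for OVA stroma, -1.03 (mitosis) for OVA epithelium, and OVA over PBS ratios of 0.31 (S-phase) and 0.52 (mitosis) in stroma and -0.028 (mitosis) in epithelium. With 4 markers and a lead of 3, mitosis ratios were 0.49 for PBS and 0.65 for OVA macrophages and -1.10 for PBS epithelium, and OVA over PBS ratios were 0.40 (mitosis) in macrophages and 0.35 (S-phase) and 0.055 (mitosis, reversed) in epithelium. With doublet calls kept, PBS mitosis ratios were 0.61 for macrophages and -1.11 for epithelium, and OVA over PBS mitosis ratios -0.051 in ILC2s and 0.13 in stroma. The mean of single nuclei gave OVA mitosis ratios of 1.22 for macrophages, -0.86 for epithelium and -0.22 for stroma. Without Smc4, epithelial mitosis ratios were -1.06 (PBS) and -1.51 (OVA). Of members called between libraries, a minimum of 10 UMIs gave 1 lower in ILC2s and 2 lower in macrophages, and a minimum of 100 UMIs gave 0 higher in macrophages, epithelium and stroma and 0 lower in epithelium, since few members reach it. Centring on the all-gene median gave 0 higher in macrophages. For shares of nuclei, 19 of 24 values moved with the thinning depth or the number of genes asked for, and macrophages had the highest mitosis share in each. Removing barcodes found in both libraries, also chosen after seeing the data, and gates of 2 markers with a lead of 1 moved none of the summed ratios beyond its interval. Gated nuclei in clusters of their own name, likewise chosen later, had mitosis ratios of -1.18 (PBS epithelium), -0.83 (PBS stroma) and -0.69 (OVA stroma), and an OVA over PBS mitosis ratio of 0.071 in epithelium, which reversed it. No paired analysis was possible because a single library stood for each group. Depth limits the PBS gates most: 3 UMIs are 16.7 CPM in ILC2s and 24.2 CPM in macrophages, so differences of most single members were not detectable at this depth.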

Other observations

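Clusters not named for the 4 gated cell types, a part of whose nuclei entered a gate, also held S-phase and mitosis UMIs, and their levels are given in CPM for the PBS library and then the OVA library. Of the 60 OVA nuclei in the first cluster below, 11 were in the ILC2 gate, and of the 24 PBS Endothelium-like nuclei 6 were in the epithelial gate. A cluster led by Klra5, Klrc2 and Gzma, genes of natural killer cells, held 20 PBS and 60 OVA nuclei and had 3115 and 2233 CPM of the S-phase genes and 3922 and 2071 CPM of the mitosis genes. B cell-like nuclei (21 PBS and 37 OVA nuclei) had S-phase sums of 1169 and 2549 CPM and mitosis sums of 3351 and 3528 CPM. A cluster led by H2-Eb1, H2-Ab1 and Clec9a, genes of antigen presentation, held 34 PBS and 24 OVA nuclei and had 1401 and 831 CPM of the S-phase and 2575 and 3023 CPM of the mitosis genes. Mast cell or basophil-like nuclei (59 PBS and 126 OVA nuclei) had S-phase sums of 392 and 528 CPM and mitosis sums of 183 and 654 CPM, and Endothelium-like nuclei (24 PBS and 26 OVA nuclei) sums of 821 and 640 CPM and 1074 and 1474 CPM. Most of these groups are small, and cluster sizes were not compared between libraries.

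The 4 Macrophage-like clusters differed in the balance of the gene sets. The 2 largest, in one of which lay most PBS nuclei (800 PBS and 430 OVA nuclei, led by Sh2d1b1 and Ear2) and in the other most OVA nuclei (157 PBS and 787 OVA nuclei, led by Nrg4, Dpep2 and Havcr2), had S-phase sums of 1399.5 and 1679.7 CPM and 1378 and 1558 CPM and mitosis sums of 1956 and 1647 CPM and 2328 and 2088 CPM. A cluster led by C1qa and Cd163 had 658 and 722 CPM of S-phase and 1871 and 1948 CPM of mitosis genes. A cluster led by Fabp4, Car4 and Spp1 had 758 and 799.5 CPM of S-phase and 644 and 1155 CPM of mitosis genes. In the 4 Stroma-like clusters the mitosis sum was higher in the OVA library each time, at 434 and 507 CPM, 305 and 532 CPM, 485 and 851 CPM and 516 and 846 CPM. Intervals of the 434 and 507 CPM overlapped (381 to 493 and 477 to 539). The 485 and 851 CPM are those of the cluster led by Slc38a5. Its gated stromal nuclei alone had 458 (356 to 579) and 438 (267 to 676) CPM, so they were not higher in the OVA library. In the 3 largest of the 5 Epithelium-like clusters the mitosis sum was also higher in the OVA library, at 261 and 469 CPM, 313 and 344 CPM and 597 and 726 CPM, and it was lower in the other two, at 351 and 238 CPM and 441 and 160 CPM. Of these 5 pairs only the 261 and 469 CPM had intervals that did not overlap.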
